A study of Mus musculus with 6 samples.

Results

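Among the 61949 rows of the small RNA count table of astrocyte and NSC EVs, 5 rows carry the labels of nuclear and nucleolar RNAs that work in transcription control and in the processing of tRNA and rRNA. These are 7SK:RF00100.359, RNaseP_nuc:RF00009.16, RNase_MRP:RF00030.1, U3:RF00012.7 and U8:RF00096.4. They were picked by these identifiers and not by a cut on their values, but with earlier results of these data known. EVs are vesicles that cells release with RNA and protein inside. Small RNA was profiled with 3 libraries per EV type. Astrocyte EVs were pelleted from culture medium by a high speed spin after clearing spins (the P100 fraction) and came from primary cortical astrocytes of CD1 mice, grown from dorsal cortices of P4 pups in flasks that were shaken to remove microglia and oligodendrocytes. NSC EVs came from primary neural stem cells that were cultured from the subventricular zone of CD1 mice and are labelled neonatal. The labels name no treatment and no genetic change in either group. The sources used here do not describe the culture medium of the NSCs or the isolation of their EVs, nor whether replicates came from separate cultures, so p-values cover only the spread among these libraries, which may be technical.

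All 5 RNAs act inside the nucleus as parts of RNA and protein complexes. 7SK RNA, bound by Larp7 and Mepce, holds the elongation kinase P-TEFb (Cdk9 with cyclin T) inactive through Hexim proteins. RNase P RNA is the catalytic RNA that removes the 5′ leader of tRNA precursors. RNase MRP RNA is its relative, shares most of its protein subunits and cleaves the rRNA precursor. U3 is a box C/D snoRNA that pairs with the rRNA precursor in the processome of the small ribosomal subunit. U8 is a box C/D snoRNA required for the RNAs of the large subunit. RNA polymerase III makes 7SK, RNase P and RNase MRP RNA, while U3 and U8 are capped products of RNA polymerase II in vertebrates.

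The position of each row on mm10 was matched to GENCODE vM21, which covers the same assembly, and 4 of the 5 rows fell on the gene that their label names. The RNase P row is Rpph1 (chr14:50807449-50807767, minus strand, 319 bases) and lies over an exon of the protein-coding gene Ccnb1ip1 on the same strand. The RNase MRP row is Rmrp (chr4:43492788-43493058, minus strand, 271 bases) and lies over an exon of Ccdc107, which is on the opposite strand. The U3 row is Rnu3b4 (chr11:87462286-87462500, plus strand, 215 bases), inside an intron of Tex14 on the same strand. The U8 row is Snord118 (chr11:69073427-69073561, plus strand, 135 bases), with no other gene over it. The 7SK row went against its label. It is Gm23028 (chrX:66448166-66448430, plus strand, 265 bases), an annotated 7SK-related copy with no other gene over it, and not the 7SK gene Rn7sk (chr9:78175303-78175633, minus strand, 331 bases), which has a row of its own. Gm23028 and Rn7sk were identical at 180 of 263 aligned bases (68.4%), and their longest shared run was 10 bases. The row is therefore called Gm23028 in what follows.

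The sequences are shown to tell how alike some of these rows are, which bears on whether they can share reads. Gm23028 is given whole, with capitals where it differs from Rn7sk or faces a gap in it, and Rn7sk is given for its first 300 bases without capitals.
Gm23028: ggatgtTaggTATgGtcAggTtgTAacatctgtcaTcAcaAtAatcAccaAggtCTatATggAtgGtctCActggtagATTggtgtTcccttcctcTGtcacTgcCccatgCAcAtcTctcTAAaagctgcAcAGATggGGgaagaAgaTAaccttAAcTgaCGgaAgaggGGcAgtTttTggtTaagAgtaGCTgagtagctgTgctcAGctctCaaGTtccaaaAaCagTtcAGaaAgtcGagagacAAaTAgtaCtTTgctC
Rn7sk: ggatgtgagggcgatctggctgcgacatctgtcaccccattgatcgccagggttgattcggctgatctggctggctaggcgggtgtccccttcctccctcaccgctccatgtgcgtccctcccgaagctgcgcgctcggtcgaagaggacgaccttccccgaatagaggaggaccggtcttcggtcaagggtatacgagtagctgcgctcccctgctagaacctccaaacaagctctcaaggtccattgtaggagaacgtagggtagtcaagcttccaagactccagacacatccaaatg
The catalytic RNAs of RNase P (first 300 bases) and RNase MRP (whole) follow, with capitals for the longest run they share, which is 9 bases.
Rpph1: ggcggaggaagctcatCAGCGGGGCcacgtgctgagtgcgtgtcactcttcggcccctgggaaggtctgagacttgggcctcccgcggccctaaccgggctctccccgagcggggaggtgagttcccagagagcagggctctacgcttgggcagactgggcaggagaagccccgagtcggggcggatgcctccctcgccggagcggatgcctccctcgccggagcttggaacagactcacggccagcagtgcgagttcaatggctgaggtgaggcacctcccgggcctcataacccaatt
Rmrp: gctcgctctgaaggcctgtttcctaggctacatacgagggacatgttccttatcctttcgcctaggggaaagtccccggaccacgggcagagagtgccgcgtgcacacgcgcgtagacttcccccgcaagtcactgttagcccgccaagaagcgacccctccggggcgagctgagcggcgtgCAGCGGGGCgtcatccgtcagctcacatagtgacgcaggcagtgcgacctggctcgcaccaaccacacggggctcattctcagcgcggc
U3 is shown as Rnu3b4 without capitals and as the copy Gm25203 (chr12:102253473-102253687, minus strand), with capitals at its 13 differences from Rnu3b4.
Rnu3b4: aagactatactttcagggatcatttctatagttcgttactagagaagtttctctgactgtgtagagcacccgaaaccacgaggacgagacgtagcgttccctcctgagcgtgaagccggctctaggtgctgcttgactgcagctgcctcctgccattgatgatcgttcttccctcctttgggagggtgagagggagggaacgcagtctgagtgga
Gm25203: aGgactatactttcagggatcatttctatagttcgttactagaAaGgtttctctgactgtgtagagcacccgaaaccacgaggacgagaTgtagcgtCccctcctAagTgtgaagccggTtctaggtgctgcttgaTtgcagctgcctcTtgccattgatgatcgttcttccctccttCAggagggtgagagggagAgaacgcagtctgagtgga
U8 is shown as Snord118, with capitals for the first TGATGA (C box letters, at base 53) and the last CTGA (D box letters, at base 131), and as the copy Gm24208 (chr12:13163629-13163763, minus strand), with capitals at its 6 differences from Snord118.
Snord118: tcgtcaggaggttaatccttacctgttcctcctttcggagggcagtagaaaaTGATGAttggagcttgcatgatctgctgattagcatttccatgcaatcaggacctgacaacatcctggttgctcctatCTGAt
Gm24208: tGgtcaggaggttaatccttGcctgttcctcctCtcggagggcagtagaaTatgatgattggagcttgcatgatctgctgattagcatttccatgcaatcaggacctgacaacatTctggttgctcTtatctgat
TGATGA followed by CTGA, read on the RNA strand only, was also in 269 of 320 C/D box rows that have a GENCODE transcript (84.1%). The sequences are those of the GENCODE vM21 transcripts.

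How far a 20-base fragment could be told from other annotated transcripts differed between the RNAs. None of the 246 windows of 20 bases in Gm23028 and none of the 252 in Rmrp occurred in a transcript of another gene. In Snord118, 45 of 116 windows (38.8%) also occurred in Gm24208. In Rpph1, 221 of 300 windows (73.7%) also occurred in transcripts of 11 other genes, among them the RNase P-like genes Rprl1, Rprl2 and Rprl3. Ccnb1ip1, whose exon lies over Rpph1 on the same strand, is also among the 11. The 73.7% is therefore not a share of copies elsewhere alone, and the share without Ccnb1ip1 was not counted. All 196 windows of Rnu3b4 occurred in other transcripts, of 10 genes. The windows were searched on the RNA strand of GENCODE transcripts and not in the genome, so a window without a match there can still occur elsewhere. The sources used here do not say how reads with several matches were counted.

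Depth differed between the EV types. Non-hairpin counts summed to 72068913 to 111276337 in astrocyte EV libraries, against 44218109 to 50585031 in NSC EV libraries, and the same read can add to several rows. tRNA rows held 39.7% to 53.8% of them in astrocyte EVs, against 22.7% to 36.5% in NSC EVs. TMM, the edgeR scaling used for every CPM (counts per 1000000 scaled counts) below, gave astrocyte EV replicate 1 a factor of 0.488, against 0.869 to 1.42 for the other 5 libraries. The 5 rows together held 5765 to 9396 counts in astrocyte EV libraries and 5751 to 8231 counts in NSC EV libraries. Rows of cell type markers are fragments of mRNA genes, introns included. Of 10 astrocyte markers tested, edgeR called 2 (Gfap and Aldoc) higher in astrocyte EVs and 0 lower. Slc1a3 (-1.15), Slc1a2 (-0.80) and Aldh1l1 (-0.18) had negative log2 fold changes (astrocyte EVs over NSC EVs) without a call. Gja1 (1.31), Sox9 (0.61), Glul (0.56), Aqp4 (0.15) and S100b (0.14) had positive ones, also without a call. Of 10 neural stem cell markers tested, 0 were higher and 1 (Fabp7) was lower by edgeR, while DESeq2 called 2 higher and 1 lower. Dlx2, Vim and Mki67 had log2 fold changes of 1.59, 1.67 and 1.08 (astrocyte EVs over NSC EVs), without overlap and without a call by edgeR. Besides Fabp7, only Nes was negative (-0.60). Summed neuron markers stood at 81.8 to 158 CPM in astrocyte EVs and at 212 to 309 CPM in NSC EVs, with 1 of 5 lower (Rbfox3). Rbfox3 alone held 63.4, 81.7 and 57.4 CPM in astrocyte EVs and 253, 149 and 172 CPM in NSC EVs. In log2 fold change Dcx (-0.78) and Snap25 (-0.22) were negative and Syt1 (0.03) and Tubb3 (0.48) positive, none called. Summed mesenchymal markers stood at 10.1 to 21.3 CPM in astrocyte EVs and 8.24 to 8.91 CPM in NSC EVs, with 1 of 4 higher (Col1a2). Col1a2 alone held 13.9, 11.0 and 4.85 CPM in astrocyte EVs and 1.16, 2.48 and 1.47 CPM in NSC EVs. Col1a1 (0.88) was positive and Col3a1 (-0.83) and Dcn (-0.01) negative, none called. For microglia, oligodendrocytes, endothelial cells and red blood cells 0 of 15 markers tested passed edgeR's test (4 at an unadjusted p under 0.05, and 2 called lower by DESeq2). The summed levels of the EV types overlapped for these lists and for the astrocyte and stem cell lists. No marker in the table was at 0 in all 3 libraries of an EV type. Whether these cells have a part in the results below was not tested.

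The 5 RNAs did not move together between the EV types. Relative to NSC EVs, Gm23028 was lower in astrocyte EVs by edgeR's quasi-likelihood test (adjusted p under 0.05). Rpph1, Rmrp, Rnu3b4 and Snord118 did not pass it. This is 1 call in 5, where 9.78% of all 41308 rows tested were called (5.54% higher and 4.24% lower) and 14.1% of the 518 Rfam rows tested were called. The CPM values of the EV types did not overlap for Gm23028, Rpph1 and Snord118, which is 3 of 5 rows, where 33.8% of all rows tested did not overlap. The log2 fold change is that of astrocyte EVs over NSC EVs, and its median was -0.04 over all rows and -0.37 over the Rfam rows. Fewer EVs with an RNA and less of it per EV cannot be told apart in these libraries. Whether the RNA lay inside EVs or pelleted beside them was not tested.

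**Figure D1:**
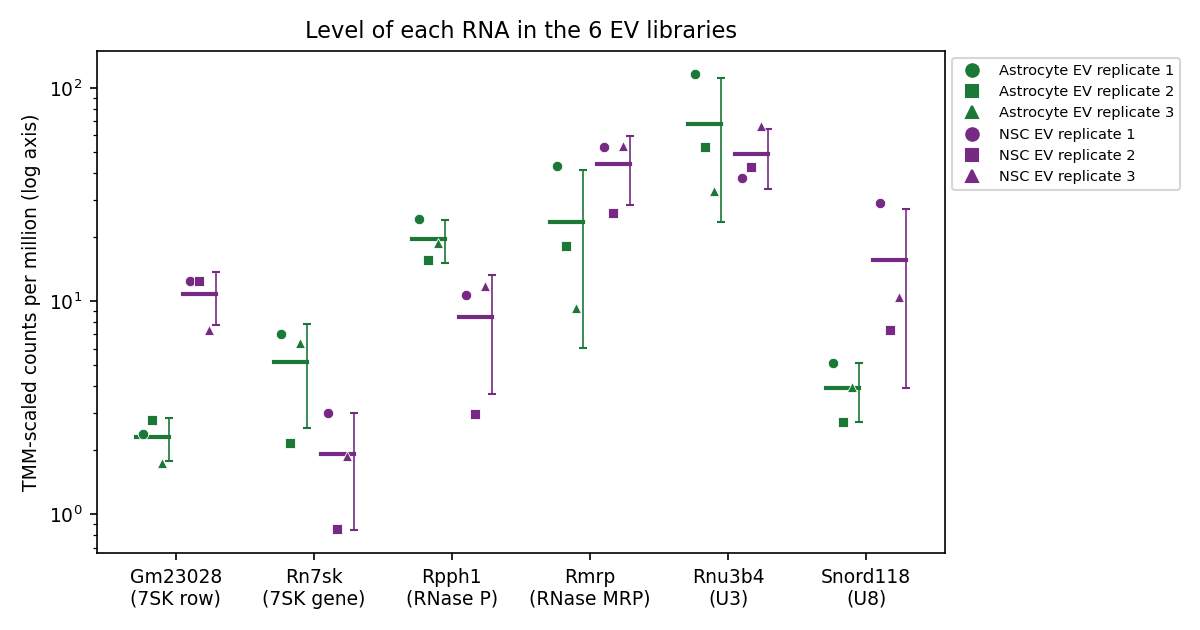
TMM-scaled CPM of the 5 rows and of Rn7sk in each library, on a log axis, with astrocyte EVs in green left of NSC EVs in purple, a symbol for each replicate number, a line at the mean and a bar of 1 SD (n = 3). Gm23028 and Snord118 lie lower and Rpph1 lies higher in astrocyte EVs without overlap, while Rmrp and Rnu3b4 overlap.

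Gm23028, the 7SK-related copy on the X chromosome, had 100, 174 and 247 counts in astrocyte EV replicates 1, 2 and 3, against 712, 788 and 403 counts in NSC EV replicates 1, 2 and 3. At TMM scale these were 2.39, 2.78 and 1.75 CPM in astrocyte EVs and 12.5, 12.5 and 7.30 CPM in NSC EVs. Every NSC EV library was above every astrocyte EV library. The means were 2.31 ± 0.519 CPM and 10.8 ± 3.0 CPM (SD, n = 3 each), a 4.67-fold lower level in astrocyte EVs (log2 fold change -2.22, SE 0.36, adjusted p = 0.0171 from edgeR). An exact two-sided permutation test on these CPM gave p = 0.1, the smallest p that 3 libraries against 3 allow. Without TMM, astrocyte EV replicate 2, the highest of its group, stood at 2.41 CPM (95% Wilson interval 2.08 to 2.80) and NSC EV replicate 3, the lowest of its group, at 7.97 CPM (7.23 to 8.78), and these intervals cover counting error only. The call was lost without astrocyte EV replicate 1 (adjusted p = 0.0633), without astrocyte EV replicate 2 (0.0707) and without NSC EV replicate 3 (0.0526), as well as against a 2-fold threshold (0.0652), with log2 fold changes of -2.45 to -2.04 over the 6 left-out libraries.

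Rn7sk, the gene of 7SK RNA itself, had 295, 136 and 898 counts in astrocyte EVs and 171, 54 and 104 counts in NSC EVs. Its levels were 7.06, 2.17 and 6.36 CPM in astrocyte EVs, against 3.0, 0.857 and 1.88 CPM in NSC EVs. Astrocyte EV replicate 2 lay below NSC EV replicate 1, so the EV types overlapped, and the row did not pass the test (log2 fold change 1.44, SE 0.57, adjusted p = 0.139 from edgeR). Within a library, the ratio of Gm23028 to Rn7sk counts does not depend on scaling. It was 0.340, 1.28 and 0.276 in astrocyte EVs and 4.15, 14.5 and 3.86 in NSC EVs, so Gm23028 took more counts than Rn7sk in every NSC EV library and in 1 of 3 astrocyte EV libraries. The difference of the mean log2 ratios was -3.64 (SD 1.20 among astrocyte EV libraries and 1.07 among NSC EV libraries, exact two-sided permutation p = 0.1, the smallest possible). This pair was chosen after its values were seen.

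The 7SK family has 248 rows, of which 20 passed the low-count filter. Of these, 2 were higher, 2 were lower (Gm23028 is 1 of them) and 16 did not pass the test. Gm23028 did not have the lowest value, with log2 fold changes of -2.81 to -1.98 under 5 other scalings. Another tested row ran from -4.70 to -3.96 under them, and was chosen after its values were seen. Of the 19 rows tested other than Gm23028, 14 had a positive log2 fold change and 5 a negative one, with a median of 0.95. After Gm23028 and Rn7sk, the rows with most counts were Gm24447 on chromosome 15 (log2 fold change 1.27, adjusted p = 0.149) and Gm26315 on chromosome 2 (1.20, adjusted p = 0.174), which are 89.6% identical to Rn7sk and can share its reads. Among 10 rows tested that are at least 85% identical to Rn7sk, 0 passed edgeR's test (3 at an unadjusted p under 0.05, and 0 called by DESeq2), 7 were positive and 3 negative. A piRNA-annotated row, mmu_piR_029675, lies inside Rn7sk at bases 227 to 250, in its 3′ part, and held 79, 29 and 367 counts in astrocyte EVs and 51, 7 and 17 counts in NSC EVs. Its sum equals 33.2% of the counts of Rn7sk. Summing all 248 rows gave a log2 fold change of 0.044 (adjusted p = 0.95), so the lower level of Gm23028 does not describe 7SK rows as a family.

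**Figure D2:**
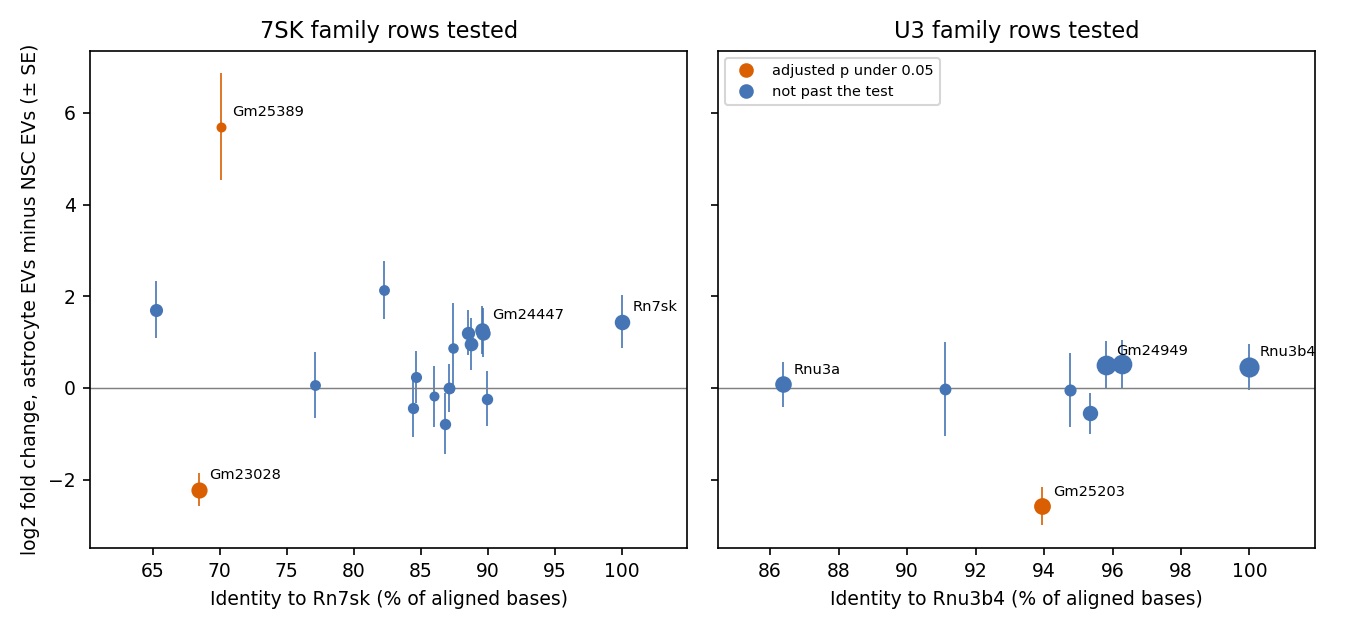
Log2 fold change with its SE (n = 3 libraries per EV type) against identity to Rn7sk or Rnu3b4 in percent of aligned bases, for the tested rows of the 7SK and U3 families that have a GENCODE sequence, with larger points for more counts and orange for an adjusted p under 0.05. Rnu3b1, Rnu3b2 and Rnu3b3, identical to Rnu3b4, are not drawn, and Gm25389 rests on 1 count over the NSC EV libraries so that its fitted value has no firm size. Gm25203 lies below the other U3 rows, while Gm23028 is not the lowest of all tested 7SK rows, drawn or not.

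RNase P and RNase MRP RNA had fold changes of opposite sign, and neither passed the test. Rpph1, the RNase P RNA, had 1018, 973 and 2654 counts in astrocyte EV replicates 1, 2 and 3, against 613, 187 and 648 counts in NSC EV replicates 1, 2 and 3. At TMM scale these were 24.3, 15.5 and 18.8 CPM in astrocyte EVs and 10.7, 2.97 and 11.7 CPM in NSC EVs. All astrocyte EV libraries were above all NSC EV libraries, and NSC EV replicate 2 was the lowest. The means were 19.6 ± 4.45 CPM and 8.48 ± 4.80 CPM (SD, n = 3 each), and the log2 fold change was 1.21 (edgeR adjusted p = 0.158, SE 0.51, exact two-sided permutation p = 0.1). It ran from 0.81 to 1.5 over the 6 left-out libraries and was 0.72 without TMM, when astrocyte EV replicates 1 and 2 (11.9 and 13.5 CPM) and NSC EV replicates 1 and 3 (12.8 CPM each) no longer separated.

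Rmrp, the RNase MRP RNA, had 1807, 1143 and 1316 counts in astrocyte EVs, against 3017, 1626 and 2950 counts in NSC EVs. Its levels were 43.2, 18.3 and 9.33 CPM in astrocyte EVs and 52.8, 25.8 and 53.4 CPM in NSC EVs. Astrocyte EV replicate 1 lay above NSC EV replicate 2, so the EV types overlapped at this scale. Without TMM the row had 21.1, 15.9 and 11.8 CPM in astrocyte EVs and 63.2, 36.8 and 58.3 CPM in NSC EVs, which do not overlap (log2 fold change -1.70, adjusted p = 0.0639 from edgeR, not past the test). The means were 23.6 ± 17.6 CPM and 44.0 ± 15.8 CPM (SD, n = 3 each), and the log2 fold change was -0.90 (edgeR adjusted p = 0.333, SE 0.57, exact two-sided permutation p = 0.2). Without astrocyte EV replicate 1 the value was -1.70 (adjusted p = 0.126), and without astrocyte EV replicate 3 it was -0.51 (adjusted p = 0.545). A second row named Rmrp and a second row named Rpph1, in another class of the table, held the same 6 counts and are the same measurements, while their antisense rows held 3 and 2 counts over all libraries.

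The ratio of Rpph1 to Rmrp counts within a library separated the EV types. It was 0.563, 0.851 and 2.02 in astrocyte EVs and 0.203, 0.115 and 0.220 in NSC EVs, so Rmrp exceeded Rpph1 in every NSC EV library and in 2 of 3 astrocyte EV libraries. The lowest astrocyte EV ratio was above the highest NSC EV ratio. The mean log2 ratio of astrocyte EVs minus that of NSC EVs was 2.52 (SD 0.94 among astrocyte EV libraries and 0.51 among NSC EV libraries, exact two-sided permutation p = 0.1, adjusted p = 0.188 over 15 ratios), and it was 2.0 to 2.92 when a library was left out or the family rows were summed. The RNA pair shares most of its proteins, and of the 8 protein genes of RNase P and RNase MRP tested as mRNA fragments 0 passed edgeR's test (1 at an unadjusted p under 0.05, and 1 called by DESeq2).

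Other RNase P rows had the same sign as Rpph1. Of 17 rows of the family 5 were tested, 1 was higher, 0 were lower and 4 did not pass, and all 4 rows other than Rpph1 had a positive log2 fold change (median 1.80). Rprl3, an RNase P-like gene on chromosome 8 that is 88.2% identical to Rpph1, had 629, 668 and 368 counts in astrocyte EVs and 88, 47 and 106 counts in NSC EVs. It was 6.72-fold higher in astrocyte EVs (log2 fold change 2.75, SE 0.66, adjusted p = 0.0392 from edgeR). The call was lost without any 1 of astrocyte EV replicates 1 and 2 and NSC EV replicates 1, 2 and 3 (largest adjusted p = 0.112), without TMM (log2 fold change 1.99, adjusted p = 0.0519) and against a 2-fold threshold (adjusted p = 0.135). Rprl2 on chromosome 3, 87.8% identical to Rpph1, had 652, 682 and 776 counts in astrocyte EVs and 253, 56 and 195 counts in NSC EVs (log2 fold change 1.85, SE 0.62, adjusted p = 0.0912). The longest runs these genes share with Rpph1 are 37 bases for Rprl3 and 32 bases for Rprl2, so a short read can match both. The ratio of Rprl3 to Rpph1 counts was 0.618, 0.687 and 0.139 in astrocyte EVs and 0.144, 0.253 and 0.164 in NSC EVs, and the EV types overlapped (two-sided exact permutation p = 0.4).

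**Figure D3:**
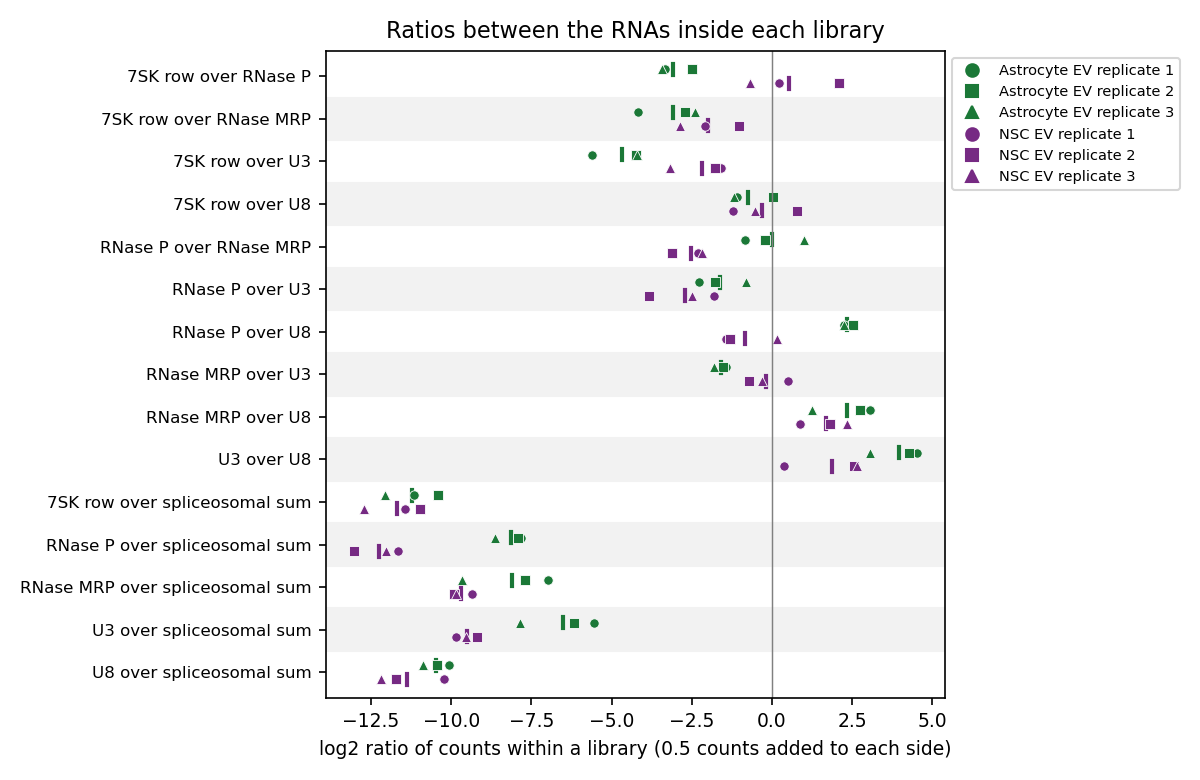
Log2 ratios of counts within each library for the 10 pairs of the 5 rows and for each row over the summed U1, U2, U4, U5 and U6 rows, with astrocyte EVs in green above NSC EVs in purple, a symbol for each replicate number and a bar at the mean (n = 3). The ratios reuse the same 5 rows, and the EV types do not overlap for 8 of the 15, among them RNase P over RNase MRP.

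U3 had the highest mean CPM per length of the 5 rows in both EV types. Rnu3b4 had 4888, 3305 and 4620 counts in astrocyte EV replicates 1, 2 and 3, against 2154, 2690 and 3651 counts in NSC EV replicates 1, 2 and 3. Its levels were 117, 52.8 and 32.7 CPM in astrocyte EVs and 37.7, 42.7 and 66.1 CPM in NSC EVs. The EV types overlapped, with astrocyte EV replicate 1 highest and astrocyte EV replicate 3 lowest of all 6. The means were 67.5 ± 44.0 CPM and 48.8 ± 15.2 CPM (SD, n = 3 each), and the log2 fold change was 0.47 (edgeR adjusted p = 0.578, SE 0.50, exact two-sided permutation p = 0.7). The direction turned without TMM (-0.30) and without astrocyte EV replicate 1 (-0.21), so no direction is given for U3.

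The family has 11 U3 rows, all tested, with 0 higher, 1 lower and 10 not past the test. Rnu3b1, Rnu3b2, Rnu3b3 and Rnu3b4, clustered inside Tex14, have the same sequence and are 1 measurement, since Rnu3b2 held exactly the counts of Rnu3b4 and Rnu3b1 and Rnu3b3 held nearly the same. Their 4 rows summed to 84.3% to 97.6% of the counts of a Tex14 row that spans them. Rnu3a on chromosome 10, 86.4% identical to Rnu3b4, had 613, 364 and 682 counts in astrocyte EVs and 544, 299 and 533 counts in NSC EVs (log2 fold change 0.08, adjusted p = 0.936), and its direction turned without TMM (-0.65). Gm25203 on chromosome 12, inside Slc24a4 on the opposite strand, is 94.0% identical to Rnu3b4 and was the single U3 row called. It had 116, 93 and 480 counts in astrocyte EVs and 615, 1032 and 1037 counts in NSC EVs. At TMM scale these were 2.77, 1.49 and 3.40 CPM in astrocyte EVs and 10.8, 16.4 and 18.8 CPM in NSC EVs, with no overlap and a 5.98-fold lower level in astrocyte EVs (log2 fold change -2.58, SE 0.42, adjusted p = 0.0168 from edgeR). The call was lost without astrocyte EV replicate 1 (adjusted p = 0.0623), astrocyte EV replicate 2 (0.0707) or NSC EV replicate 3 (0.0561), and against a 2-fold threshold (0.0546). Per 1 count of Rnu3b4, Gm25203 had 0.0238, 0.0283 and 0.104 counts in astrocyte EVs and 0.286, 0.384 and 0.284 counts in NSC EVs, a difference of -2.93 in mean log2 ratio (SD 1.16 among astrocyte EV libraries and 0.25 among NSC EV libraries, exact two-sided permutation p = 0.1). Gm25203 was chosen after its values were seen.

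U8 missed the threshold, although every astrocyte EV library was below every NSC EV library. Snord118 had 215, 170 and 559 counts in astrocyte EV replicates 1, 2 and 3, against 1649, 460 and 579 counts in NSC EV replicates 1, 2 and 3. Its levels were 5.14, 2.71 and 3.96 CPM in astrocyte EVs and 28.9, 7.30 and 10.5 CPM in NSC EVs. NSC EV replicate 1 stood above the other NSC EV libraries. The means were 3.94 ± 1.21 CPM and 15.6 ± 11.6 CPM (SD, n = 3 each), and the log2 fold change was -1.98 (edgeR adjusted p = 0.0573, SE 0.55, exact two-sided permutation p = 0.1). The row passed with DESeq2 (adjusted p = 0.00656), without TMM (0.0206), without a low-count filter (0.0286) and without NSC EV replicate 2 (0.0375). The log2 fold change was -1.17 without NSC EV replicate 1 (adjusted p = 0.111). Gm24208, the other U8 row, had 22, 26 and 25 counts in astrocyte EVs and 73, 35 and 48 counts in NSC EVs (log2 fold change -1.31, SE 0.53, adjusted p = 0.142), and its ratio to Snord118 overlapped between the EV types (exact two-sided permutation p = 0.4).

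The order of the CPM per length differed between the EV types in where RNase P stood. Coverage along the rows was not measured, so this is an order of counts per length and not of RNA amounts. Per 100 bases, astrocyte EVs averaged 31.4 CPM of Rnu3b4, 8.71 CPM of Rmrp, 6.13 CPM of Rpph1, 2.92 CPM of Snord118 and 0.871 CPM of Gm23028. The ranges of Rnu3b4 and Rmrp overlapped, as did those of Rmrp and Rpph1, while Rpph1 lay above Snord118 and Snord118 above Gm23028 in all 3 libraries without overlap. NSC EVs averaged 22.7 CPM of Rnu3b4, 16.2 CPM of Rmrp, 11.5 CPM of Snord118, 4.06 CPM of Gm23028 and 2.66 CPM of Rpph1. Among these neighbours only Snord118 and Gm23028 did not overlap. Rpph1 was above Snord118 in astrocyte EVs and had the lowest mean in NSC EVs. The ratio of their counts was 4.73, 5.71 and 4.74 in astrocyte EVs and 0.372, 0.407 and 1.12 in NSC EVs, a difference of 3.19 in mean log2 ratio (SD 0.16 among astrocyte EV libraries and 0.88 among NSC EV libraries).

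Of 15 ratios within a library, 8 did not overlap between the EV types, each with an exact two-sided permutation p of 0.1 and an adjusted p of 0.188, and 0.1 is the smallest p this design allows. The 15 ratios reuse the same 5 rows and the same sum, so the 8 are not separate results. How often ratios of other rows do not overlap was not measured. For single rows, 33.8% of all rows tested did not overlap in CPM. Between the 5 rows, the ratios of RNase P to RNase MRP, U8 and Gm23028 did not overlap, nor did those of U3 to RNase MRP, U8 and Gm23028. The mean log2 ratio of RNase MRP to U3 differed by -1.41 (astrocyte EVs minus NSC EVs, as in the following values), that of U3 to U8 by 2.08, that of Gm23028 to U3 by -2.51 and that of Gm23028 to RNase P by -3.62. RNase P against U3, Gm23028 against RNase MRP and U8, and RNase MRP against U8 overlapped. The summed U1, U2, U4, U5 and U6 spliceosomal rows stood at 3799 to 7511 CPM in astrocyte EVs and at 24937 to 49104 CPM in NSC EVs. Over this sum, the mean log2 ratio of RNase P differed by 4.11 and that of U3 by 3.0, both without overlap, while the ratios of RNase MRP, U8 and Gm23028 overlapped.

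**Figure D4:**
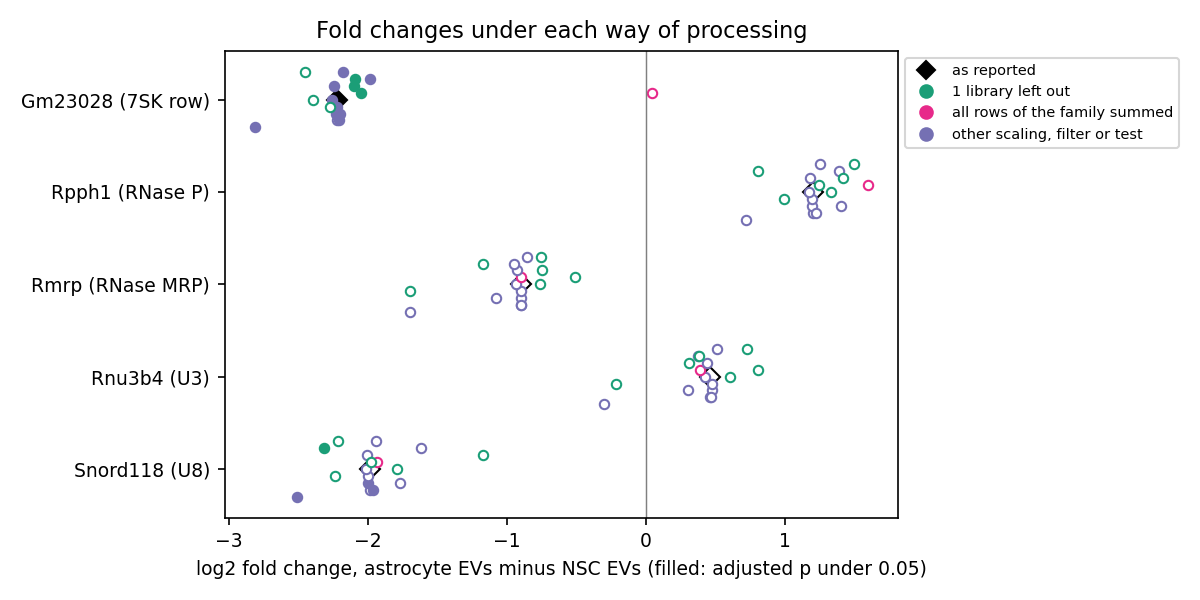
Log2 fold change of each row as reported (diamonds) and under 17 other ways of processing (circles), filled where the adjusted p is under 0.05. Gm23028 stays at or below -1.98 except when all 7SK rows are summed (0.044), Rnu3b4 crosses 0, and Snord118 is filled in 4 of 17.

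The rows most like each RNA over the 6 libraries were named by the root mean square (RMS) difference of mean-centred log2(CPM + 1), among 38863 rows with at least 100 counts. For Gm23028 they were a row annotated as a copy of small subunit rRNA on chromosome 12 (RMS 0.06, with 40, 79 and 78 counts in astrocyte EVs and 364, 381 and 204 counts in NSC EVs), Disc1 (0.14) and the antisense row of Ttll7 (0.16). For Rpph1 they were a glutamate tRNA-like row (0.16), a glutamate tRNA gene with anticodon CTC on chromosome 17 (0.21) and the C/D box snoRNA SNORD2 (0.21). For Rmrp they were the antisense row of Gm7616 (0.25), a copy of large subunit rRNA on chromosome 16 (0.27) and mmu_piR_039147 (0.28). For Rnu3b4 the nearest was the Tex14 row that holds the same reads (0.06), followed by the antisense row of B3gnt7 (0.13). For Snord118 they were miR-181a-5p (0.18), Colq (0.22) and Gnl3 (0.22). These are descriptions over 6 libraries that share depth and scaling. Whether the rRNA row and Gm23028 share reads was not tested.

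The protein genes of these pathways were read as fragments of their mRNA genes, introns included. Of 97 genes tested in 6 lists, 8 were higher in astrocyte EVs, 4 were lower and 85 did not pass the test. The balance of directions turned with scaling, with 2 higher and 9 lower without TMM and 4 higher and 5 lower with library sizes from mature miRNA rows. The 8 higher and 4 lower genes are 12.4% of the 97, where 9.41% of the 17739 RefSeq sense rows tested were called. The median log2 fold change was 0.06 against 0.03 over those rows. The fold changes of the 12 called genes kept their sign under 5 other scalings, and 0 of the 97 genes passed edgeR's test when astrocyte EV replicate 1, astrocyte EV replicate 2 or NSC EV replicate 3 was left out, where 27, 27 and 28 of them had an unadjusted p under 0.05.

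Of 14 genes of the 7SK complex and P-TEFb, 3 were higher, 0 were lower and 11 did not pass (median log2 fold change 0.21). Ccnt2, a cyclin T subunit of P-TEFb, had 305, 444 and 560 counts in astrocyte EVs and 85, 173 and 99 counts in NSC EVs (log2 fold change 1.6, SE 0.39, adjusted p = 0.0406). Hnrnpr, which binds 7SK released from P-TEFb, had a log2 fold change of 1.33 (edgeR adjusted p = 0.0404, SE 0.32). Aff4, a scaffold of the super elongation complex (1.21, adjusted p = 0.209), did not pass, nor did Syncrip (-3.33, adjusted p = 0.0737), which had 117, 149 and 618 counts in astrocyte EVs and 181, 5023 and 752 counts in NSC EVs. Of 8 RNase P and RNase MRP protein genes, 0 were called by edgeR (1 at an unadjusted p under 0.05, and 1 called lower by DESeq2, median -0.22), and the most counted were Pop1 (-0.23, adjusted p = 0.675), Rpp30 (0.89, adjusted p = 0.377) and Rpp14 (0.24, adjusted p = 0.769).

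Of 29 genes of the box C/D core and the U3 processome, 2 were higher, 3 were lower and 24 did not pass (median 0.03). Rrp9, the U3-specific protein, had 175, 233 and 294 counts in astrocyte EVs and 21, 29 and 31 counts in NSC EVs (log2 fold change 2.84, SE 0.40, adjusted p = 0.0156). Nhp2l1, the protein that binds the box C/D fold first, had a log2 fold change of 1.69 (edgeR adjusted p = 0.0241, SE 0.33). Wdr3, a processome protein, had 9, 16 and 53 counts in astrocyte EVs and 77, 119 and 92 counts in NSC EVs (log2 fold change -2.49, SE 0.38, adjusted p = 0.0162), and the others lower were Utp15 (-1.28, adjusted p = 0.0367) and Wdr46 (-1.50, adjusted p = 0.0412), named after their values were seen. Nop56, Utp6 and Utp20 had most counts and did not pass, and 6 other RNA rows on the same strand inside Nop56 held 5804 counts. Of 10 genes of U8 and large subunit maturation 0 passed edgeR's test in either direction (2 at an unadjusted p under 0.05, and 0 called by DESeq2, median 0.07). Bop1 held 7321 of its counts in astrocyte EV replicate 3 and Lsm4 1010 of its counts in NSC EV replicate 2.

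Of 20 genes of RNA polymerase III transcription at this promoter type, 2 were higher, 0 were lower and 18 did not pass (median 0.14). Tbp, the TATA-binding protein, had 312, 452 and 921 counts in astrocyte EVs and 82, 95 and 81 counts in NSC EVs (log2 fold change 2.26, SE 0.29, adjusted p = 0.0156). Polr3g, a subunit of RNA polymerase III, had a log2 fold change of 1.68 (edgeR adjusted p = 0.0367, SE 0.39). Snapc3 (0.47), Pou2f1 (-0.05) and Polr3b (0.18) had most counts and did not pass. Of 16 genes of La and 3′ end trimming, 1 was higher, 1 was lower and 14 did not pass (median 0.08). Exosc10, a nuclease of the nuclear exosome, had 810, 887 and 1974 counts in astrocyte EVs and 3424, 7148 and 5085 counts in NSC EVs (log2 fold change -2.48, SE 0.37, adjusted p = 0.0161). Skiv2l2, the helicase that feeds RNA to that exosome, had a log2 fold change of 1.59 (edgeR adjusted p = 0.0254, SE 0.32). Counts of these fragments are not levels of the proteins in EVs.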

How the data were processed

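The authors deposited raw counts for 61949 rows as whole numbers, not normalized, in a column for each library. Tools named in the submitters' notes, without versions, are Bowtie2, Bowtie, bedtools, SAMtools, cutadapt, FastQC and DESeq, on mm10. The sources used here do not say how reads that match several rows were counted or if strand was used. The paper names an Illumina kit and a HiSeq, the series record a CleanTag kit and a NextSeq. The other deposited tables hold the authors' group means and the fold changes and adjusted p-values of their comparison and were not used here.

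All 61161 rows other than the 788 miRNA hairpins entered the fit, and library size was their sum. Rows were tested in R 4.3.3 with the quasi-likelihood test of edgeR 4.0.16 (TMM, filterByExpr with group, group as the single term, Benjamini-Hochberg adjustment over 41308 rows, calls at an adjusted p under 0.05), with a biological coefficient of variation of 0.449. Log2 ratios within a library had 0.5 counts added to each side and were compared by exact two-sided permutation tests (scipy 1.17.1), adjusted over 15 ratios. Wilson intervals (95%) cover counting error only. Between replicates of a group the chi-square was at least 91.7 per degree of freedom, so no pair was within sampling noise. Sequences were compared with Biopython 1.88, and 224 of 248 7SK rows and all but 1 of 17 RNase P rows had a GENCODE vM21 transcript at the same position. Tables and figures were made in Python 3.11.15 with pandas 2.3.3, numpy 2.4.6 and matplotlib 3.10.9.

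The members and gene lists were chosen with earlier results of these data known. Named were the 5 rows, up to 3 other rows of each family with most counts, other rows of the same RNAs, from each gene list the up to 3 genes with most counts and the up to 3 called genes of largest fold change, and the 3 rows most like each member. Rows past this rule are marked in the text as chosen after their values were seen. The plotted 7SK row Gm25389 is also outside it. Of the rows that this rule names, 2 are not reported here. The alternatives were no TMM, DESeq2 size factors, DESeq2 1.42.0, library sizes from mature miRNA rows or without tRNA and rRNA rows, no filter, at least 10 counts in every library, leaving out each library, a block for the replicate number, identical rows taken once, family sums and a 2-fold threshold.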

Additional observations from a re-analysis of the deposited data

How the results depend on the processing

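Rpph1, Rmrp and Snord118 kept their direction under all 17 alternatives, and Gm23028 under all but family sums, where the 7SK rows gave 0.044. Gm23028 stood at -2.22 against a 2-fold threshold, where its call was lost. Rnu3b4 gave -0.30 without TMM. Snord118 passed at -2.0 with DESeq2, -2.51 without TMM and -1.96 without a filter. Over the left-out libraries the log2 fold changes ran from -2.45 to -2.04 for Gm23028, 0.81 to 1.5 for Rpph1, -1.70 to -0.51 for Rmrp, -0.21 to 0.81 for Rnu3b4 and -2.31 to -1.17 for Snord118. Of the 5 rows, 0 passed edgeR's test against a 2-fold threshold or as family sums (2 at an unadjusted p under 0.05 in each), 2 with DESeq2, without TMM and without a filter, and 0 to 2 with a library left out (0 when the one left out was NSC EV replicate 3 or either of the first 2 astrocyte EV replicates, with 2 or 3 rows then at an unadjusted p under 0.05). Of the protein genes, 2 were called against a 2-fold threshold, 22 with DESeq2 and 0 to 10 with a library left out. Ratios that did not overlap numbered 8 to 11 with a library left out. Rnu3a turned to -0.65 without TMM, to -0.021 with the replicate block and to -0.60 at the lowest (0.37 at the highest) with a library left out.

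Over all rows, 2290 were higher and 1750 lower (56.7% of calls higher). Without TMM these were 738 and 3217 (18.7%), and the median log2 fold change was -0.54 in place of -0.04, while library sizes from mature miRNA rows moved it to 0.20. DESeq2 called 4203 and 3687, and a 2-fold threshold 255 and 194. Without astrocyte EV replicate 1 or 2 edgeR called 0 rows (9885 and 9729 at an unadjusted p under 0.05), and without NSC EV replicate 3 it called 18. Same-numbered libraries deviated from their group means with correlations of -0.15 to -0.05, which show no likeness by number. With 3 libraries per group, such correlations cannot show whether same-numbered libraries were prepared together. With the replicate number as a block, 668 rows were higher and 577 lower, 4 protein genes were called, no call of the 5 rows changed and the call of Rprl3 was lost (adjusted p = 0.102).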
